A study of Bos taurus with 60 samples.

Results

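Milk proteins are made by the luminal secretory cells of the mammary gland. The caseins are phosphorylated proteins that carry calcium and phosphate in micelles and supply most of the protein of bovine milk. CSN1S1 encodes alpha-S1-casein and CSN2 encodes beta-casein. LALBA encodes alpha-lactalbumin, a whey protein that binds the galactosyltransferase B4GALT1 in the Golgi to form lactose synthase, and lactose in turn draws water into milk. Prolactin, acting through STAT5, and glucocorticoids drive these genes during lactation, and milk protein synthesis wanes when milking stops.

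The genes described here are CSN1S1 (XLOC_020597, ENSBTAG00000007695), CSN2 (XLOC_020952, ENSBTAG00000002632) and LALBA (XLOC_019176, ENSBTAG00000005859), 3 of the 25223 loci counted and 3 of the 14714 loci that passed the filter on low counts. They were chosen by name, as the casein and alpha-lactalbumin genes that could be paired with a symbol. CSN1S1 and CSN2 lie in the casein cluster of chromosome 6 and LALBA lies on chromosome 5. None of the 3 loci merged several ENSEMBL genes.

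RNA-Seq was carried out on mammary biopsies of 12 multiparous Holstein cows 3 days before the last milking (D-3) and again 3, 7, 14 and 25 days after it (D3 to D25), which gave 60 libraries. From dry-off, 6 cooled (CL) cows had shade, fans and soakers and 6 heat-stressed (HT) cows had shade only, so the D-3 biopsies preceded the treatments. All cows were lactating until dry-off and all were pregnant. The biopsies came from alternating glands of the udder and held all the cell types of the tissue, so successive samples of a cow came from different glands, and fewer secretory cells and less RNA per cell cannot be told apart.

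The libraries held 20525083 to 26183990 counted reads, with a median of 22637562. Reads of a gene are given as counts scaled to the library total (CPM), and tests used CPM scaled by the trimmed mean of M-values (TMM). The TMM factors moved with the share of the libraries taken by the 3 genes. At D-3 they were 0.300 to 0.419 in the 5 cows in which the 3 genes took 40.2 to 49.8% of the library, and 1.02 to 1.21 in the other 7 cows. Changes are therefore also given without TMM where that matters.

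Some libraries stood apart from their labels. In deviations from the treatment and day means over all other loci, the D14 and D25 samples of HT cow 8513 had mean correlations of -0.17 and -0.03 with its own D-3, D3 and D7 samples, and 0.47 and 0.56 with those of HT cow 8660. The D14 and D25 samples of cow 8660 had correlations of 0.33 and 0.41 with the earlier samples of cow 8513, and 0.11 and 0.13 with its own. Both cows were HT, so comparisons of HT with CL on a day do not depend on which cow is which, and the within-cow changes from D-3, the ratios and the residual levels are also given without them or with their late samples exchanged. The D14 sample of CL cow 7965 had a median correlation of 0.82 with the other samples, the lowest of the 60 libraries. The summed TMM-scaled CPM of the luminal keratins KRT7 and KRT19 was 6.19 in it, against 668 to 1287 in the other 4 samples of that cow, whereas DCN, a fibroblast marker, was at 5396 against 873 to 1401.

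Before dry-off, milk protein reads differed widely between cows. CSN1S1 was at 896, 22712 and 236730 CPM (lowest, median and highest of 12 cows), CSN2 at 997, 22250 and 230020 CPM, and LALBA at 11.9, 2609 and 31313 CPM. The highest cow exceeded the lowest 264-fold for CSN1S1, 231-fold for CSN2 and 2624-fold for LALBA. CL cows 7965, 8564 and 8647 and HT cows 8541 and 8713 had 170490 to 236730 CPM of CSN1S1. HT cow 8668 had 40329 CPM, and the remaining 6 cows, 3 of each treatment, had 896 to 5095 CPM. The same 5 cows were highest for CSN2 and for LALBA, and the lowest of them exceeded the next cow 4.23-fold for CSN1S1, 5.67-fold for CSN2 and 4.26-fold for LALBA in CPM of the library. With TMM, whose factors were low in these cows, the gaps were 10.4-fold, 14.8-fold and 11.2-fold. Cow 8713 had the highest library share of the 3 genes, at 49.8%, and cow 8060 the lowest, at 0.190%. These values split the cows into separate clusters, so no correlation of D-3 levels with later levels was computed.

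**Figure D1:**
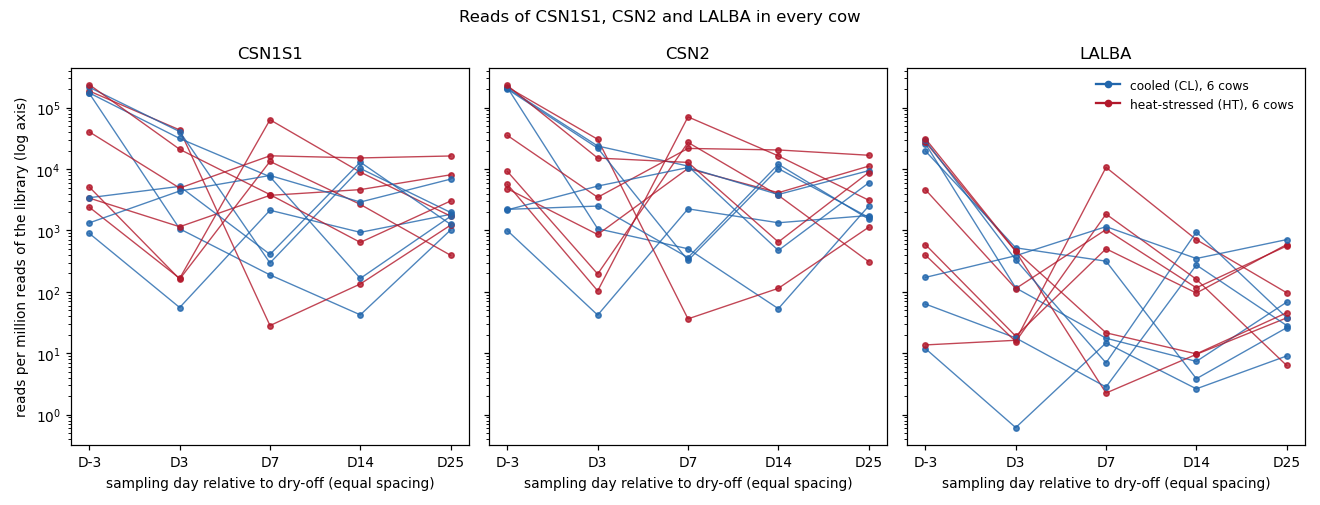
CPM of the library (log axis) for CSN1S1, CSN2 and LALBA in every cow at the 5 sampling days, 1 line per cow, blue for the 6 cooled and red for the 6 heat-stressed cows. At D-3 a cluster of 5 cows sits at 170490 to 236730 CPM of CSN1S1, and at D25 all 12 cows sit between 395 and 16348 CPM.

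All 3 genes fell from D-3 to D3. CSN1S1 reached 55.6, 4651 and 43434 CPM at D3 (lowest, median, highest), CSN2 41.9, 2986 and 30563 CPM, and LALBA 0.616, 115 and 522 CPM. The days overlapped for every gene, since the cows that were low at D-3 lay below the high cows at D3. The log2 fold change of D3 vs. D-3 was -4.00 (SE 1.15) for CSN1S1, -4.65 (SE 1.15) for CSN2 and -7.14 (SE 1.51) for LALBA, with edgeR FDR of 0.0130, 0.00380 and 0.000753. Each gene was lower at D3 in 10 of 12 cows. The median within-cow change in TMM-scaled log2 CPM was -3.64 for CSN1S1, -4.35 for CSN2 and -5.25 for LALBA. It was -3.37, -4.07 and -5.90 without cows 8513 and 8660, with the caseins lower in 8 and LALBA in 9 of 10 cows. The 3 genes were among the 9.04% of tested loci called lower at D3, beside 6.03% called higher and 15.1% in either direction. The call for CSN1S1 was lost when only the D-3 and D3 samples entered the fit (FDR 0.0635), and the calls for CSN2 and LALBA held there. Without TMM the changes were -2.76, -3.43 and -5.83, with FDR of 0.0471 for CSN1S1, 0.0167 for CSN2 and 0.00353 for LALBA, and 1.19% of loci were called lower. Leaving out 1 cow at a time moved the number of loci called in either direction from 2217 to between 1230 and 2557.

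The size of the decline at D3 differed between cows. CSN1S1 of CL cow 7965 went from 170490 to 1064 CPM, while that of HT cow 8541 went from 186630 to 43434 CPM. The cows in which the genes did not decline were CL cow 8686, in which all 3 were higher at D3 (CSN1S1 from 1331 to 4397 CPM), CL cow 8603 for the caseins (CSN1S1 from 3420 to 5227 CPM) and HT cow 8513 for LALBA, at 13.7 and 16.3 CPM. The lowest value of the series was LALBA in CL cow 8060 at D3, at 14 reads or 0.616 CPM (95% exact binomial interval 0.337 to 1.03, which covers counting error only).

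Between D3 and D7 the cows moved in both directions. Each of the 3 genes was higher at D7 in 6 of 12 cows and lower in 6, and all 3 moved the same way in 12 of 12 cows. CSN1S1 went from 166 to 63630 CPM in HT cow 8513 and from 43434 to 28.3 CPM in HT cow 8541, so the order of these cows was reversed. The log2 fold change of D7 vs. D3 was -0.51 (SE 1.02) for CSN1S1, 0.50 (SE 0.99) for CSN2 and 2.62 (SE 1.22) for LALBA, with edgeR FDR of 0.887, 0.884 and 0.260, and 2.92% of loci (430) were called, against 49 to 609 loci when 1 cow was left out. Without cows 8513 and 8660 the values were -2.16 for CSN1S1, -0.89 for CSN2 and 0.08 for LALBA. LALBA at D7 was at 2.25, 169 and 10669 CPM, and its highest value belonged to cow 8513.

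Later steps gave no call for any of the 3 genes. From D7 to D14 the log2 fold change was -1.17 (SE 1.03) for CSN1S1, -1.33 (SE 1.01) for CSN2 and -2.80 (SE 1.23) for LALBA, with edgeR FDR of 1 for each. LALBA was lower at D14 in 9 of 12 cows. Without cow 8513 these values were -0.16, -0.77 and -1.40, and without cows 8513 and 8660 they were 0.18, -0.38 and -0.81. From D14 to D25 the changes were -0.44 (SE 1.02), -0.25 (SE 0.99) and -0.27 (SE 1.15), with FDR of 1 for each. The shares of loci called were 0% for D14 vs. D7, with 257 loci at an unadjusted p of at most 0.05 0 calls in DESeq2 and 10 with tagwise dispersions, and 0.0612% for D25 vs. D14. Leaving out the D14 sample of cow 7965 changed none of these calls for the 3 genes. At D14 the levels were 42.3, 2782 and 15190 CPM for CSN1S1, 53.3, 3794 and 20493 CPM for CSN2, and 2.64, 106 and 944 CPM for LALBA, where both lowest casein values belonged to the D14 sample of cow 7965 that was nearly free of luminal keratins.

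At D25 the genes were still read in every cow. CSN1S1 was at 395, 1775 and 16348 CPM, CSN2 at 312, 2808 and 16808 CPM, and LALBA at 6.33, 42.0 and 710 CPM. The 3 genes together took 0.0713 to 3.37% of the libraries, with a median of 0.428%. HT cow 8668 had the highest CSN1S1 and CSN2, and CL cow 8686 the highest LALBA. The lowest caseins and LALBA were in the sample labelled HT cow 8660. Against D-3, the log2 fold change was -6.12 (SE 1.27) for CSN1S1, -5.73 (SE 1.22) for CSN2 and -7.59 (SE 1.54) for LALBA, with edgeR FDR of 0.000808, 0.00105 and 0.000619. They were among the 9.16% of loci called lower, beside 3.96% called higher and 13.1% (1930 loci) in either direction, and 869 to 2154 loci were called when 1 cow was left out. Without TMM the changes were -4.52, -4.14 and -5.98, with edgeR FDR of 0.0103, 0.0116 and 0.00806, and 1.26% of loci were called lower.

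The fall to D25 was largest in the cows that were high at D-3. They were picked by the baseline of this comparison, so this was in part fixed in advance. Each gene was lower at D25 than at D-3 in 9 of 12 cows, with a median within-cow change of -2.59 for CSN1S1, -3.04 for CSN2 and -4.56 for LALBA in TMM-scaled log2 CPM. Without cows 8513 and 8660 the medians were -4.79, -3.87 and -6.58, with the caseins lower in 7 and LALBA in 8 of 10 cows. With the late samples of this pair exchanged they were -2.24, -3.02 and -2.63. In the fit blocked by cow, changes of the 3 genes were -5.50, -4.99 and -7.08, with FDR of 0.0138, 0.0142 and 0.00516, and 12.3% of loci were called lower. In that fit the calls for both caseins were lost when any of cows 7965, 8564, 8647 or 8713 was left out, with FDR of 0.0542 to 0.0671 for CSN1S1 and 0.0534 to 0.0630 for CSN2, and the call for LALBA held. Without the block every call held with any 1 cow left out. The edgeR FDR was then 0.000763 to 0.00511 for CSN1S1, 0.00116 to 0.00596 for CSN2 and 0.000544 to 0.00358 for LALBA.

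Residual expression at D25, as a percentage of the TMM-scaled level of the same cow at D-3, ranged from 0.203 to 546% for CSN1S1, from 0.161 to 460% for CSN2 and from 0.0362 to 600% for LALBA. The medians were 22.5%, 24.6% and 6.59%. In cows 7965, 8564, 8647, 8541 and 8713 the caseins were left at 0.161 to 1.02% and LALBA at 0.0362 to 0.0936%. Without TMM these were 0.520 to 3.82% and 0.130 to 0.262%. CSN1S1 exceeded its D-3 level in CL cows 8060 and 8686 and HT cow 8314. LALBA exceeded its D-3 level in CL cow 8686, HT cow 8314 and HT cow 8513, the last of which held the maximum of 600%. The value of cow 8513 pairs its D-3 sample with the D25 sample whose label is in doubt. With the late samples of cows 8513 and 8660 exchanged it was 40.7%, the maximum was 437% in cow 8686, and the medians were 22.7%, 17.996% and 17.0%. Without both cows the medians were 19.0%, 23.5% and 5.88%. These percentages are divided by the D-3 level and so vary with it by construction. Without TMM the medians were 22.3%, 25.7% and 6.84%, and 2 cows in place of 3 exceeded their D-3 level of LALBA.

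**Figure D2:**
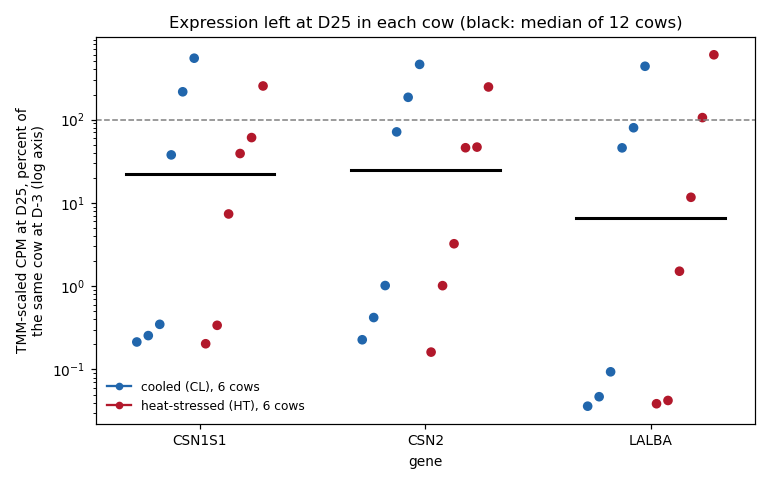
TMM-scaled CPM at D25 as a percentage of the same cow at D-3 (log axis) for each gene, 1 point per cow, blue for cooled and red for heat-stressed, with the median of 12 cows as a black bar and 100% as a dashed line. The medians lie at 22.5% for CSN1S1, 24.6% for CSN2 and 6.59% for LALBA, and 5 cows lie near or below 1% for every gene.

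The 3 genes moved together within a cow. Over the 48 steps between successive days, both caseins moved the same way in 47 and all 3 genes in 44. The highest of the 5 days was the same for the 3 genes in 12 of 12 cows: D-3 in 6 cows, D7 in 4, D14 in 1 and D25 in 1. The lowest day was shared in 10 of 12 cows. All 3 genes moved the same way in 37 of 40 steps without cows 8513 and 8660. Without TMM the highest day was shared in 11 of 12 cows. Over the 60 samples, which share cows and libraries, Pearson's r of log2 CPM was 0.98 between CSN1S1 and CSN2, 0.92 between CSN1S1 and LALBA, and 0.92 between CSN2 and LALBA. After centring on each day r was 0.98, 0.90 and 0.90.

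**Figure D3:**
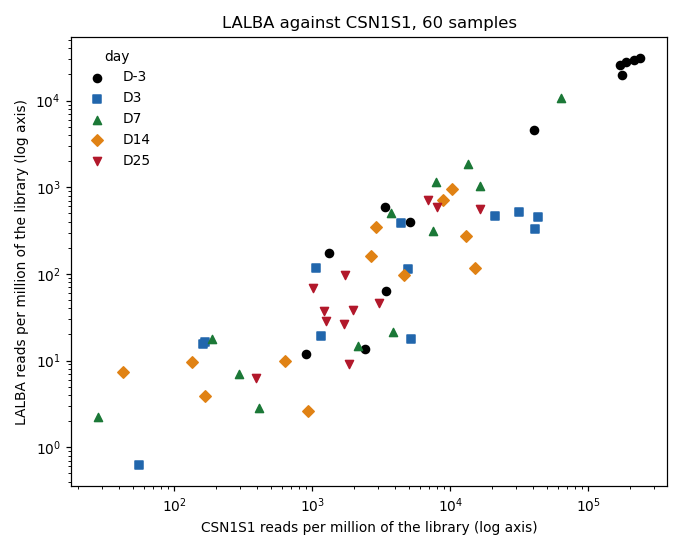
LALBA against CSN1S1 in CPM of the library (both axes log) in the 60 samples, with day as symbol and colour. Both genes rise together, and LALBA spans 0.616 to 31313 CPM while CSN1S1 spans 28.3 to 236730 CPM.

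The balance between the caseins shifted in the same direction in every cow. CSN2 reads were 0.646, 1.18 and 2.37 times the CSN1S1 reads at D-3 (lowest, median and highest of 12 cows), 0.478, 0.734 and 1.21 times at D3, and 0.888, 1.33 and 3.35 times at D7. The log2 ratio of CSN2 to CSN1S1 averaged 0.27 ± 0.50 at D-3, -0.40 ± 0.41 at D3 and 0.63 ± 0.62 at D7 (SD, n = 12). It was lower at D3 than at D-3 in 12 of 12 cows, by -0.67 ± 0.44, and higher at D7 than at D3 in 12 of 12 cows, by 1.03 ± 0.56 (two-sided exact sign-flip test, p = 0.000488 for each, the smallest that 12 cows can give; adjusted p = 0.00439 over 18 tests). Both held without cows 8513 and 8660, at -0.56 ± 0.21 and 1.08 ± 0.61 (exact sign-flip test, adjusted p = 0.00879 for each). The smallest D3 change was -0.31 and the largest -1.92, the latter in HT cow 8513. CSN2 had more reads than CSN1S1 in 8 of 12 cows at D-3, 3 of 12 at D3 and 11 of 12 at D7. At D14 and D25 the ratio averaged 0.34 ± 0.50 and 0.50 ± 0.73, and no later step and no comparison of D25 with D-3 passed the test. The ratio is formed within a library, so TMM does not enter it.

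**Figure D4:**
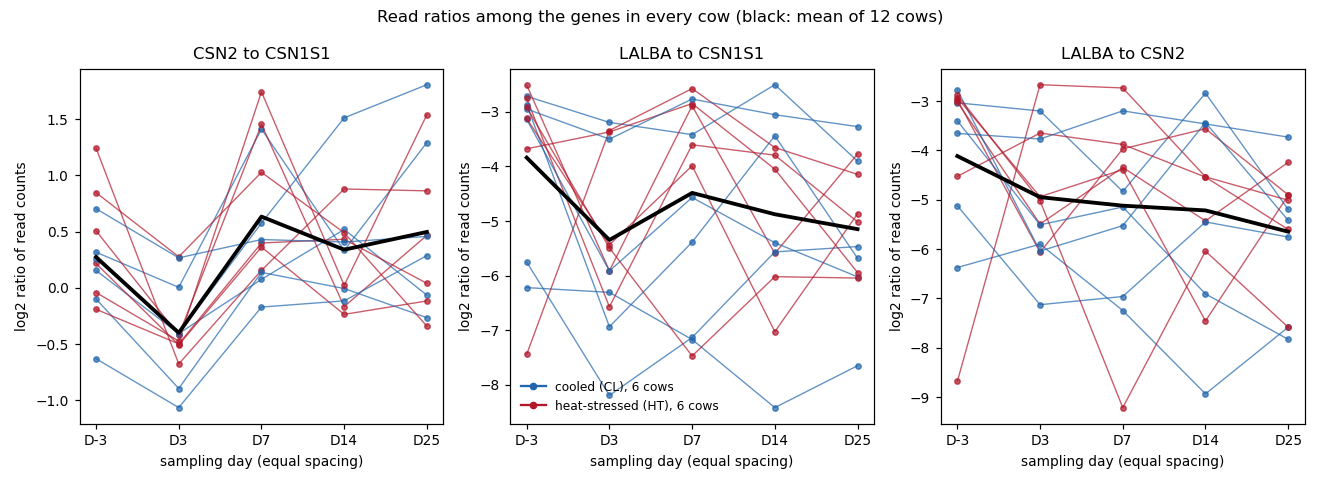
Log2 ratios of read counts among the 3 genes at the 5 sampling days, 1 line per cow, blue for cooled and red for heat-stressed, with the mean of 12 cows in black. The ratio of CSN2 to CSN1S1 dips at D3 in every cow, from a mean of 0.27 to -0.40, and lies at 0.63 at D7.

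The ratio of LALBA to CSN1S1 was lower at D3 and D25 than at D-3 in most cows, but the difference did not pass the test with all 12. In the median cow there were 8.22 CSN1S1 reads for each LALBA read at D-3. The median was 52.7 on D3, 14.2 on D7, 29.8 on D14 and 38.4 on D25. The log2 ratio of LALBA to CSN1S1 was lower at D3 than at D-3 in 10 of 12 cows, by -1.51 ± 2.30 (exact sign-flip test, p = 0.0513, adjusted p = 0.185). It was lower at D25 than at D-3 in 10 of 12 cows, by -1.31 ± 1.78 (exact sign-flip test, p = 0.0327, adjusted p = 0.147). These tests turned on HT cow 8513, whose ratio was -7.44 at D-3 and -3.34 at D3. Between these days its LALBA reads went from 329 to 369 and its CSN1S1 reads from 57502 to 3764. Without cow 8513 alone the changes were -2.02 and -1.73 (exact sign-flip test, adjusted p = 0.0105 and 0.00879). Without cows 8513 and 8660 they were -2.25 ± 1.42, in 10 of 10 cows, and -1.67 ± 1.12, in 9 of 10 cows (exact sign-flip test, adjusted p = 0.00879 and 0.0141). With the late samples of the pair exchanged, the D25 change was -1.31 ± 1.39 (exact sign-flip test, adjusted p = 0.0645). The log2 ratio of LALBA to CSN2 changed by -0.83 ± 2.56 at D3 and by -1.53 ± 2.15 at D25 against D-3 (exact sign-flip test, adjusted p = 0.505 and 0.147). Without cow 8513 these were -1.46 and -2.01 (exact sign-flip test, adjusted p = 0.0381 and 0.00586). Cows 8513 and 8660 were the 2 in which LALBA to CSN1S1 rose at D3, so leaving them out favours a call. The doubt about their labels does not touch the pairing of D3 with D-3. With 1 cow left out, the adjusted p of the exact sign-flip test reached 0.3445 (D3) and 0.29 (D25) for LALBA to CSN1S1. For LALBA to CSN2 it reached 0.6405 and 0.29.

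The spread between cows narrowed towards D25. The SD of TMM-scaled log2 CPM between 12 cows was 4.07 for CSN1S1 before dry-off. It was 3.51 on D3, 3.31 on D7 and 2.86 on D14, and 1.51 by D25. It went from 3.93 to 1.71 for CSN2 and from 5.22 to 2.28 for LALBA between D-3 and D25. Without TMM the SD for CSN1S1 was 3.26 before dry-off, 3.33 on D3, 3.20 on D7, 2.86 on D14 and 1.47 by D25, so that it was not lower on D3 than before dry-off, and the SD for CSN2 was 3.11, 3.22 and 3.30 on D-3, D3 and D7. In CPM of the library, the highest cow exceeded the lowest 264-fold for CSN1S1 at D-3, 781-fold at D3, 2251-fold at D7, 359-fold at D14 and 41.4-fold at D25. The deviation of a cow from the median of the day was smaller at D25 than at D-3 in 9 of 12 cows for each casein and in 8 of 12 cows for LALBA, and on average it changed by -2.65 for CSN1S1, -2.13 for CSN2 and -2.93 for LALBA on the log2 scale (two-sided exact sign-flip test, adjusted p = 0.0342 for each over 12 tests). Of the 12 tests 7 passed, and the lowest p was that of LALBA at D14, when the deviation was smaller in 12 of 12 cows (exact sign-flip test, adjusted p = 0.00586, and 0.0313 without TMM). These calls were not stable. Without TMM the D25 narrowing held for CSN1S1 (exact sign-flip test, adjusted p = 0.0313) but not for CSN2 or LALBA (exact sign-flip test, adjusted p = 0.0633 for each). With 1 cow left out, the adjusted p of the exact sign-flip test at D14 was 0.1055 to 0.241 for CSN1S1 and 0.0820 to 0.241 for CSN2. Neither casein call at D14 therefore held. For LALBA at D14 it was 0.0398 to 0.0703. At D25 it ranged up to 0.154 for each gene. The cows whose omission ended the D25 call of CSN1S1 were 7965, 8060, 8513, 8541, 8564, 8647, 8668 and 8713. The same cows and cow 8603 ended the D25 calls of CSN2 and LALBA.

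**Figure D5:**
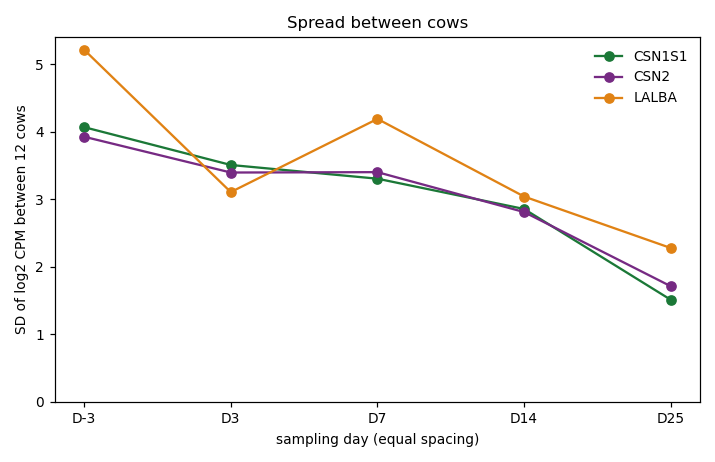
SD of TMM-scaled log2 CPM between the 12 cows at each sampling day for the 3 genes. The SD falls from 4.07 to 1.51 for CSN1S1, from 3.93 to 1.71 for CSN2 and from 5.22 to 2.28 for LALBA between D-3 and D25, with LALBA back at 4.19 on D7.

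HT and CL cows were not separated by these genes on any day. At D-3, before the treatments, CSN1S1 was at 896, 86955 and 214630 CPM in CL cows (lowest, median and highest of 6) and at 2391, 22712 and 236730 CPM in HT cows. At D7 it was at 189, 1273 and 7865 CPM in CL cows and 28.3, 8588 and 63630 CPM in HT cows, and both the lowest and the highest cow of that day were HT. LALBA at D7 was at 2.83, 16.2 and 1155 CPM in CL cows and 2.25, 770 and 10669 CPM in HT cows. At D25 CSN1S1 was at 1020, 1768 and 6864 CPM in CL cows and 395, 2370 and 16348 CPM in HT cows. The treatments overlapped for each gene on each day. The differences with the smallest p were at D7, where HT exceeded CL by 2.73 (SE 1.34) for CSN1S1, 2.73 (SE 1.28) for CSN2 and 3.51 (SE 1.81) for LALBA in log2 fold change (edgeR, unadjusted p = 0.0631, 0.0524 and 0.0743, FDR 0.959 for each). When 1 cow was left out, the D7 difference ranged from 1.39 to 3.26 for CSN1S1, from 1.86 to 3.33 for CSN2 and from 1.52 to 5.30 for LALBA. No locus passed FDR at D7 in edgeR, where 0% of loci were called and 672 of 14714 had an unadjusted p of at most 0.05, while DESeq2 called 3 loci and edgeR with tagwise dispersions 5. On the other days the log2 fold changes of the 3 genes lay between -0.48 and 1.12, with FDR of at least 0.997, and 0% of loci were called, with 97 to 333 loci at an unadjusted p of at most 0.05 and 0 or 1 call in DESeq2 and with tagwise dispersions. The test of the treatment by time interaction gave FDR of 1 for each gene. The standard errors of the HT and CL difference at D-3 were 1.73 to 1.94 in log2, so that large differences would not have been detectable with 6 cows a treatment.

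No comparison of the ratios between HT and CL passed the test. The log2 ratio of CSN2 to CSN1S1 was -0.38 ± 0.33 in HT and -0.42 ± 0.51 in CL cows at D3, and 0.86 ± 0.65 and 0.41 ± 0.56 at D7 (SD, n = 6). The log2 ratio of LALBA to CSN1S1 was -3.90 ± 1.83 in HT and -5.07 ± 1.85 in CL cows at D7. Over the 15 comparisons the lowest two-sided exact permutation p was 0.229 and each adjusted p was 0.937.

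Among the loci whose pattern over the 60 samples was most like CSN1S1 were XLOC_019085, which had no paired symbol (Pearson r = 0.94), HSTN (0.94), FAM134B (0.92) and another locus without a symbol (0.91). HSTN encodes histatherin and lies in the casein cluster. Among those most like CSN2 were HSTN (0.94), the merged locus of FOLR1 and FOLR3 (0.93), which encode folate receptors, XLOC_019085 (0.91) and ATP13A4 (0.91). LALBA was most like ABCG2 (0.92), an efflux transporter of the apical membrane, ALOX15 (0.91), XLOC_019085 (0.91), XLOC_022690 (0.91) and KRT24 (0.91). The samples share cows and days, and centring on each day gave r of 0.88 to 0.95 for these loci. HSTN had a median of 97.1 TMM-scaled CPM at D-3 and 3.77 at D25, and ABCG2 163 and 59.5. Reads of a neighbouring or overlapping gene could not be told apart by strand, because the library kit did not mark it.

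Other milk protein genes were examined from a fixed list. Of its 14 symbols, 5 could be paired with a tested locus, and since symbols came from partial tables of the most changed loci, the counts below do not describe the pathways as wholes. All 5 were called lower at D3 than at D-3 and 4 of 5 at D25. Of all tested loci, 9.04% were called lower and 6.03% higher at D3, and 9.16% and 3.96% at D25. BTN1A1, the butyrophilin of the milk fat globule membrane, changed by -4.29 (SE 0.95) at D3, and MUC15, a mucin of that membrane, by -3.74 (SE 0.97). CD36, a fatty acid transporter, changed by -2.73 (SE 0.51), XDH, xanthine oxidoreductase, by -2.26 (SE 0.47) and PLIN2, a lipid droplet coat protein, by -1.84 (SE 0.41). The median of the list was -2.73 at D3 and -2.74 at D25, beside -0.01 and 0.00 over all tested loci. Pairing favoured changed loci, so neither the medians nor the counts of these lists can be set against all loci as a test. At D25 PLIN2 was at -0.93 (SE 0.40) with edgeR FDR of 0.117. The 5 falls at D3 also passed without TMM. At D25 3 of 5 passed without TMM, where BTN1A1 was at -1.62 (edgeR FDR 0.0769) and PLIN2 at -0.04.

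For casein phosphorylation and milk minerals, 2 of 7 symbols were paired. SLC34A2, a sodium-phosphate cotransporter, changed by -5.23 (SE 0.83) at D3 and -5.24 (SE 0.83) at D25, and ATP2C2, a calcium pump of the secretory pathway, by -2.21 (SE 0.54) and -3.36 (SE 0.57), and each passed edgeR FDR on both days. Without TMM the D3 fall of ATP2C2 did not pass (FDR 0.0542).

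For lactose synthesis, 6 of 9 symbols were paired, of which 5 were called lower and 1 higher at D3, and 5 lower at D25. The shares of all tested loci were 9.04% lower and 6.03% higher at D3, and 9.16% lower at D25. B4GALT1, the partner of LALBA in lactose synthase, changed by -1.17 (SE 0.28) at D3 and -1.15 (SE 0.28) at D25, and this was not tested against the change of LALBA. SLC2A1, a glucose transporter, changed by -1.31 (SE 0.26) at D3 and HK2, a hexokinase, by -1.21 (SE 0.26). PGM1, a phosphoglucomutase, rose by 0.41 (SE 0.12), and SLC35A2, which brings UDP-galactose into the Golgi, changed by -0.62 (SE 0.17). The falls of this list depended on the scaling. Without TMM the median of all loci was 0.35 at D3 and 0.48 at D25, 1 of the 6 genes was called lower at D3 and none at D25, and the values were -0.31 for B4GALT1, -0.39 for SLC2A1 and 0.08 for SLC35A2 at D3. LALBA and the caseins kept their direction and calls under both scalings.

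For lactogenic signalling, 4 of 17 symbols were paired, with 3 called lower and 1 higher at D3, beside 9.04% and 6.03% of all tested loci. CISH, a STAT5 target that restrains cytokine signalling, changed by -0.82 (SE 0.24), NR3C1, the glucocorticoid receptor, by -0.65 (SE 0.15), STAT5B by -0.57 (SE 0.18) and INSR, the insulin receptor, by 0.37 (SE 0.13). Without TMM none of the 4 was called lower, with STAT5B at -0.00 and CISH at -0.14.

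Markers of the cell types in the biopsies also differed between days, and their part in the changes of the milk protein genes was not tested. The summed TMM-scaled CPM of KRT7 and KRT19, the 2 of 6 luminal markers that were paired, ranged over the cows from 698 to 1798 before dry-off. On D3 the range was 733 to 5221, on D7 508 to 1321, on D14 6.19 to 2380 and on D25 529 to 1190. The median was 1089 before dry-off and 816 on D25. The summed library share of the 3 milk protein genes was 0.190 to 49.8% before dry-off and 0.0713 to 3.37% on D25, with medians of 4.75 and 0.428%, and both measures overlapped between these days. The 4 of 6 myoepithelial markers KRT5, KRT17, ACTA2 and MYLK summed to 480 to 2313 before dry-off, 927 to 3403 on D3 and 600 to 1436 on D25. At D3 KRT7 (1.31, SE 0.33), KRT5 (1.01, SE 0.31) and ACTA2 (0.81, SE 0.27) were higher than at D-3. KRT19 (0.52, edgeR FDR 0.333), KRT17 (0.82, FDR 0.0579) and MYLK (0.42, FDR 0.0632) did not pass. FABP4, an adipocyte marker, was lower (-1.71, SE 0.49), as was KDR, an endothelial marker (-0.95, SE 0.22), whereas DCN was at 0.12 (SE 0.24, FDR 0.795). Without TMM the values were -0.81 for FABP4 and -0.06 for KDR, and neither passed. MYH2, the 1 of 5 skeletal muscle markers that was paired, was at most 16.7 CPM in any sample and was higher at D3 (2.95, SE 0.81). No leukocyte marker could be paired.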

How the data were processed

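Mammary biopsies of 12 cows at 5 days gave 60 libraries, grouped by treatment and day as in the labels. Per the labels and the study's methods, the authors sequenced poly(A) RNA as single-end reads, trimmed them with Trim Galore 0.4.1, aligned them with TopHat2 2.0.13, merged gene models with Cufflinks 2.2.1 and counted uniquely mapped reads with HTSeq. The genome build is bosTau7 in the methods and UMD3.1 in the processing notes. The deposited values are raw counts per locus, and a locus listed for several ENSEMBL genes was used once (742 of 25223 loci).

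The filter kept 14714 loci that reached 1 CPM in 6 or more samples. Counts were scaled by TMM and tested with edgeR 4.0.16 (R 4.3.3), by the quasi-likelihood F-test with trended dispersions and Benjamini-Hochberg FDR of 0.05 over all kept loci, on the 60 samples for days and on the 12 samples of a day for HT vs. CL. The SE is the log2 fold change divided by the square root of F. Log2 CPM and read ratios used a prior count of 2. Ratios and spread were tested with exact sign-flip tests of within-cow differences, and with exact permutation tests between treatments (Python 3.11.15, numpy 2.4.6, scipy 1.17.1), two-sided, with Benjamini-Hochberg adjustment in each family. The edgeR fits of D3 vs. D-3, with and without the block, and of HT vs. CL at D3 were checked on simulated counts. Simulated loci shared a single fixed dispersion, which was not fitted to the 3 genes. The sign-flip and permutation tests were compared with those of scipy on random values. The interaction test, DESeq2 and the measure of spread were not simulated. DESeq2 1.42.0 was an alternative. The main fit over days had no term for the cow, so it treated the 60 samples as independent. A fit with the cow as a block was an alternative. Per the labels, same-numbered samples come from the same cow. Their deviations from the group means correlated at a mean of 0.29 over 120 pairs of days (-0.49 to 0.84), against -0.06 between cows, and at a mean of 0.32 over 100 pairs (-0.24 to 0.84) without cows 8513 and 8660, whose late samples resemble each other's earlier ones. No pair of files was identical.

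The 3 genes, the gene lists and the alternatives were chosen with earlier results of these data known. Named genes were the 3 members, the 5 loci most like each (1 of these loci is not reported here), all paired genes of the list of other milk proteins, and the 2 highest and 2 lowest called at D3 in the other lists, with B4GALT1 added as the partner of LALBA. Symbols came from partial tables of the most changed loci, which paired 3033 loci. Transcript lengths and sequences were not used here, so levels were not compared between genes per length, and promoters were not searched for motifs. Depth limits the lowest values, as given beside them.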

Additional observations from a re-analysis of the deposited data

Results flagged for a closer look

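Of 60 groups of 6 cows (3 genes and 3 ratios in each treatment and day), 7 held a cow whose gap to the nearest other cow was large against the range of its group. Chance alone would flag about 1 in 20 groups, or 3 of 60, if the values were normally distributed. That was not checked, the cows fell into clusters at D-3, and the genes and ratios overlap. CSN1S1 in CL cow 8686 at D25 was at 12.59 in log2 CPM, above the next cow at 10.68. CSN2 in HT cow 8541 at D7 was at 4.97, below the next cow at 13.16. The log2 ratio of CSN2 to CSN1S1 in HT cow 8660 at D3 was 0.28, above the next cow at -0.42. HT cow 8513 at D-3 had a log2 ratio of LALBA to CSN1S1 of -7.44, with the next cow at -3.68, and of LALBA to CSN2 of -8.68, with the next at -4.53. HT cow 8713 at D7 had -7.47 and -9.21 for the same ratios, with the next cows at -3.99 and -4.39. No difference between HT and CL in the change over time passed the interaction test.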

How the results depend on the processing

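The falls of the 3 genes at D3 and D25 against D-3 kept their direction under each alternative (cow block, RLE factors, library size only, TMM without the 3 genes, DESeq2, filters, tagwise dispersions, treatment as covariate, fewer samples), and kept their calls except CSN1S1 at D3 in the fit of those 24 samples alone (-4.00, FDR 0.0635), where fewer samples enter. The pairing by cow (replicate block) with all 12 cows changed no call of these genes, but in it the D25 calls of CSN1S1 and CSN2 were lost without any of cows 7965, 8564, 8647 or 8713. Under the block, CSN1S1 D7 vs. D3 was 0.0587 and LALBA D25 vs. D14 0.128, opposite in sign to the unblocked values, and with library size only in the block they were 0.0886 and 0.0562. Without cows 8513 and 8660, CSN2 D7 vs. D3 was -0.89, D14 vs. D7 0.18 for CSN1S1, -0.38 for CSN2 and -0.81 for LALBA, and D25 vs. D14 0.11 for CSN2 and 0.21 for LALBA. In the block without these cows the values were -0.60 for CSN2 and -0.18 for LALBA at D7 vs. D3, 0.18 for CSN1S1 at D14 vs. D7, and 0.0300 for CSN2 and 0.0779 for LALBA at D25 vs. D14. None of these steps passed in any fit, and the blocked fits that leave out cows or TMM, and the within-cow medians and residual levels without or with exchanged cows 8513 and 8660, were added after seeing the data.

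Without cows 8513 and 8660 the ratio tests over time that passed rose from 2 to 6 of 18, as they did without cow 8513 alone, with LALBA to CSN1S1 at -2.25 (D3) and -1.67 (D25) and LALBA to CSN2 at -1.69 and -2.10 against D-3. With library size only, the narrowing of spread no longer passed for CSN1S1 at D14 (-0.73), CSN2 at D14 (-0.63) and D25 (-1.45) and LALBA at D25 (-2.24). The causes were not tested.

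Leaving out 1 cow at a time, with and without the block, gave for D7 vs. D3 -1.75 to 1.10 (CSN1S1) and -0.40 to 2.10 (CSN2), for D14 vs. D7 without the block -1.52 to -0.16, -1.66 to -0.77 and -3.42 to -1.40 (CSN1S1, CSN2, LALBA), for D25 vs. D14 -0.64 to 0.28, -0.50 to 0.28 and -0.67 to 0.81 (CSN1S1, CSN2, LALBA), and for D25 vs. D-3 -6.77 to -4.13 (CSN1S1) and -6.17 to -3.89 (CSN2). HT vs. CL ranged at D-3 from -1.13 to 0.40, -1.06 to 0.18 and -1.02 to 0.46, at D3 from -1.42 to 0.52, -1.28 to 0.54 and -0.87 to 0.27 (CSN1S1, CSN2, LALBA), and at D14 from -0.45 to 1.002 (CSN1S1) and -1.70 to 0.57 (LALBA). The change of LALBA to CSN1S1 ranged from -2.02 to -1.28 at D3 and -1.73 to -1.14 at D25, that of LALBA to CSN2 from -1.46 to -0.61 and -2.01 to -1.24, and the HT minus CL difference in CSN2 to CSN1S1 at D3 from -0.10 to 0.17. The change in spread ranged for CSN1S1 from -1.51 to -1.06 (D14) and -2.91 to -2.25 (D25), for CSN2 from -1.49 to -1.01 and -2.43 to -1.81, and for LALBA from -2.30 to -1.72 (D3), -2.12 to -1.75 (D14) and -3.28 to -2.53 (D25). With 11 cows the median of a day is 1 cow's own value.

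Counts of loci called moved more than those of the 3 genes. D3 vs. D-3 called 2217 loci, against 845 in its 24 samples, and D25 vs. D-3 called 1930, against 945 in its 24 samples, 3003 under the block and 6038 with library size only. D7 vs. D3 called 430, against 881 under the block, 716 with DESeq2, 648 with tagwise dispersions and 36 with library size only. Leaving out 1 cow without the block gave 1230 to 2557 for D3 vs. D-3, 869 to 2154 for D25 vs. D-3 and 49 to 609 for D7 vs. D3. D25 vs. D14 called 9, against 0 to 30 in the other fits. At D3, 887 loci were called higher and 1330 lower, against 2216 and 175 with library size only, and at D25 582 and 1348, against 5853 and 185.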
